A study of Drosophila melanogaster with 3 samples.

Results

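Around the sites that both anti-Grh antibodies marked in Drosophila melanogaster embryos, the rabbit-antibody list held many further, weaker peaks. These flanking peaks are the subject here. They were chosen by the deposited score and by distance: a rabbit peak was taken where its score was below 25 and its nearest mouse-antibody peak on the same chromosome lay more than 250 and at most 5000 bp away. Distance classes are given below by their limits, the lower one not included. The rule found 2595 flanking peaks among the 12158 peaks of the rabbit list. They were 22.6% of the rabbit peaks with a score below 25. Of the peaks with a score of 25 or more, 37 lay at the same distances, or 5.39%. Of these 686 peaks, 350 lay within 250 bp of a mouse peak, as did 1406 of the 11472 below 25. Such peaks are barred by the inner limit, so the shares do not compare strong and weak peaks on like terms. Score and distance were used to choose the peaks, so their values are given as a description, with no test.

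The chromatin came from w1118 embryos aged 13 to 16 h, with no mutant, transgene or treatment named in the labels. The rabbit anti-Grh library is compared here with the mouse anti-Grh library. Each has 1 peak list, the mouse list with 1638 peaks, and the third library, made with rabbit IgG, was not analysed here. There are no replicates and the read depth is unknown, so intervals below cover counting error only and no spread between embryos can be given. Each peak is a 2 bp point in the dm3 build and is named by its first base. The score has no stated unit and is used here to order peaks within a list, and weak and strong refer to it alone. Differences and ratios of scores describe the deposited values only. Whole embryos hold many cell types, and a weak peak in few cells cannot be told apart from weak binding in many.

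Grh, or Grainy head, regulates transcription in the epidermis, trachea and other epithelia. It is known for activating genes of the cuticle and of the epithelial barrier, in development and after wounding. Regulatory DNA of such genes often holds several binding sites close together, and ChIP-seq gives a peak wherever immunoprecipitated fragments pile up. Neither gene names nor sequences are given for the peaks, because they need a genome or annotation of the dm3 build.

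The flanking peaks were densest next to the mouse peaks and thinned out towards the outer limit of the rule. Their median distance was 1609 bp, with quartiles of 706 and 3086 bp. Within 500 bp lay 398 of them, within 1000 bp 930 (35.8%), and within 2000 bp 1492 (57.5%). To show how many peaks the same rule finds elsewhere, the mouse list was moved along each chromosome in 100 evenly spaced circular shifts. The rule found 2595 peaks around the mouse peaks as deposited, against a mean of 1165 around the shifted ones (10.2% of the rabbit peaks below 25; lowest 1085, highest 1286). The observed number was thus 2.23 times the mean of the shifts, and above each of the 100. On average 12.8% of the peaks found around the shifted mouse peaks lay within 250 bp of a mouse peak as deposited. The rule bars such peaks from the observed number. Shifted counts and densities of rabbit peaks, here and below, are thus higher than on like terms. Of the 1430 peaks by which the observed number exceeded the mean of the shifts, 50.3% lay within 1000 bp and 71.7% within 2000 bp. Shifts of 20 to 100 kb, which stay in the same part of a chromosome, found more peaks than the evenly spaced ones. Their mean was 1354, which the observed number exceeded 1.92-fold. Shifts of 20 kb found 1522 on average and shifts of 100 kb 1214.

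Expressed per kb of chromosome at a given distance from the nearest mouse peak, the density of rabbit peaks below 25 fell step by step. It was 0.535 per kb at 250 to 500 bp (exact 95% Poisson interval 0.484 to 0.591), against 0.0978 around the shifted mouse peaks. At 500 to 750 bp it was 0.40 per kb (0.355 to 0.449) and at 750 to 1000 bp 0.358 (0.315 to 0.405), 4.05 and 3.67 times the shifted density. At 1000 to 1500 bp it was 0.236 per kb (0.211 to 0.264), and at 1500 to 2000 bp 0.193 (0.169 to 0.218). From 2000 to 5000 bp it declined further to 0.133 per kb in the last 1000 bp (0.118 to 0.148), 1.36 times the shifted density. The outer limit of the rule thus lay where the density was still above that of the shifts. At 5000 to 7500 bp, outside the rule, it was 0.114 per kb, 1.18 times the shifted density and above all of the shifts there. At 7500 to 10000 bp it was 0.0967 per kb, against 0.0963 around the shifted peaks, and between 20 and 50 kb it was 0.0741, below all of the shifts there. The shifted densities include rabbit peaks within 250 bp of a mouse peak as deposited, which the observed densities beyond 250 bp cannot hold. The near-equal values at 7500 to 10000 bp therefore do not show that the density had reached a like background. The density at 250 to 500 bp was 5.47 times that of the shifts, 5.54 times that at 7500 to 10000 bp and 7.23 times that between 20 and 50 kb.

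**Figure D1:**
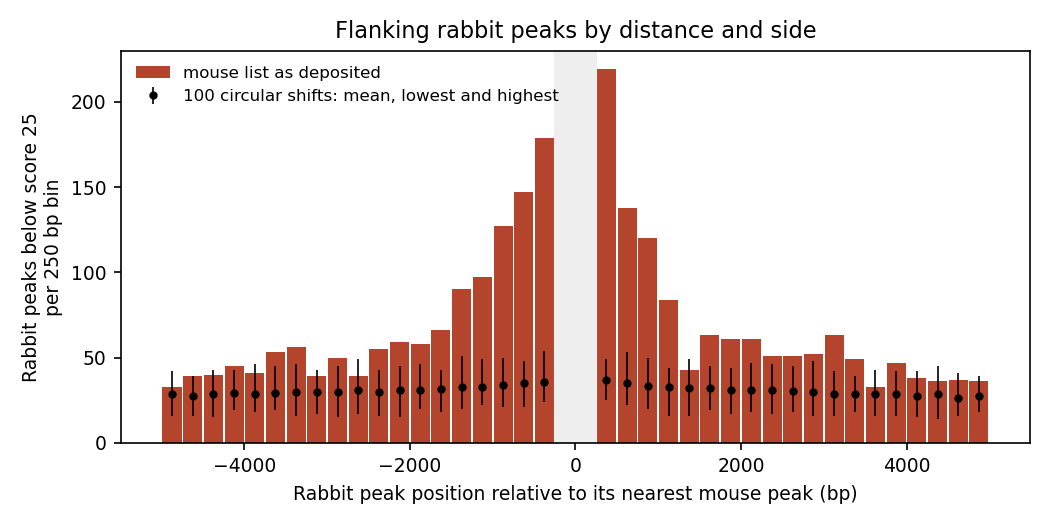
Number of rabbit peaks below score 25 in bins of 250 bp against their position relative to the nearest mouse peak (bp; negative is the lower coordinate), with points and bars for the mean, lowest and highest of 100 circular shifts; the shaded 250 bp on each side hold matched peaks and are not drawn. The innermost bins hold 179 peaks on the lower side and 219 on the higher side, against shift means of 35.8 and 36.9, and the outermost bins hold 33 and 36, against 28.5 and 27.4.

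The inner limit cut through a continuous run of values. Rabbit peaks below 25 numbered 1166 within 50 bp of a mouse peak, then 58 at 50 to 100 bp, 36 at 100 to 150 bp, 69 at 150 to 200 bp and 77 at 200 to 250 bp. The first bins inside the rule held 94 peaks at 250 to 300 bp, 90 at 300 to 350 bp and 85 at 350 to 400 bp. A dip therefore separated the coinciding peaks from the flanking ones, with its floor at 100 to 150 bp. A like shortage of short distances was seen in the rabbit list as a whole, where neighbouring peaks lay at least 73 bp apart. Gaps of 300 to 350 bp were the most frequent of the 50 bp classes up to 650 bp, with 376 gaps, against 110 gaps of 100 to 150 bp. The labels give fragments of 0.1 to 0.5 kb after sonication, a range that covers the innermost flanking peaks, and the part of fragment length in their position was not tested.

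Peaks just inside and just outside the distance limits are given here as a description. The members nearest to the inner limit were on 2R at 11905951 (score 5.29) and on 3R at 1485138 (score 2.09), each 1 bp beyond it. Next came a peak on 3RHet at 2474102 (score 12.7) and another on 3R at 2034912 (score 11.5), both at 253 bp. The nearest member after these was on 3L at 1969558, at 257 bp and with a score of 8.39. All of these 5 peaks had the deposited rank of the rabbit peak that coincided with the mouse peak, a property taken up below. Just outside stood a peak on 2L at 135376 (score 5.69) and another on 3R at 10972575 (score 2.51), both at 250 bp. At the outer limit a member on 3R at 26292621 (score 3.70) lay at 4996 bp, and a peak on 2R at 3912059 (score 7.78) fell outside at 5005 bp.

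Below the ceiling set by the rule, the flanking peaks had scores close to those of other weak rabbit peaks. Their median score was 5.59 (quartiles 3.87 and 7.82, lowest 2.0, highest 24.7). The 7471 rabbit peaks below 25 that lay farther from any mouse peak had a median of 5.28 (quartiles 3.48 and 7.63), lower by 0.31. The peaks that the rule found around the shifted mouse peaks had a median of 5.76 on average (lowest shift 5.54, highest 6.04), higher than the flanking peaks by this measure. Among them, 12.8% on average were matched to a mouse peak as deposited, a kind of peak with higher scores that the rule leaves out around the deposited mouse peaks. The 1406 rabbit peaks below 25 within 250 bp of a mouse peak had a median of 13.7 (quartiles 9.72 and 18.1). The quartiles of the flanking peaks thus overlapped broadly with those of the distant peaks and lay wholly below those of the matched peaks. By distance, the median was 5.96 at 250 to 500 bp, 5.74 at 500 to 750 bp, 5.45 at 1000 to 1500 bp and 5.27 at 3000 to 4000 bp. It was 5.69 in the last bin, at 4000 to 5000 bp, so the decline was small beside the quartiles, which were 4.21 and 8.88 in the innermost bin. Density thus fell about 4-fold across the range, while the median score of each bin stayed between the quartiles of the innermost bin.

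**Figure D2:**
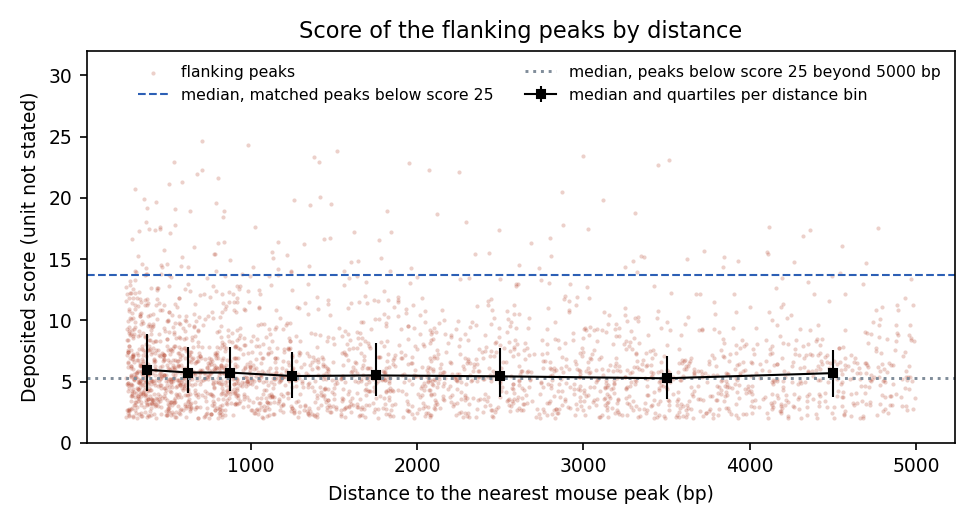
Deposited score (unit not stated) of each flanking peak against its distance to the nearest mouse peak (bp), with squares and bars for the median and quartiles of 8 distance bins. The medians run between 5.27 and 5.96, close to the dotted line of weak peaks beyond 5000 bp (5.28) and below the dashed line of matched peaks below score 25 (13.7).

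Each flanking peak was set beside the rabbit peak at its mouse peak. For 2590 of the 2595 (99.8%), the nearest mouse peak had a rabbit peak within 250 bp, as had 1622 of all 1638 mouse peaks (exact 95% binomial interval 98.4 to 99.4%). The other 5 flanking peaks belonged to 3 of the 16 mouse peaks without such a partner. Of the 2590, 2408 had a lower score than the partner, or 93.0% (exact 95% binomial interval 91.9 to 93.9%). The median ratio of their score to that of the partner was 0.35 (quartiles 0.22 and 0.56). The share was 92.6% within 1000 bp and 93.2% beyond it. Of the weak distant rabbit peaks, 6887 of 7451 (92.4%, 91.8 to 93.0%) likewise scored lower than the partner of their nearest mouse peak, and the intervals overlapped. The rule capped the score of both kinds of weak peak at 25, and partners had no cap, so this share says nothing particular to the flanking peaks. Of the 2590, 182 scored at least as high as the partner.

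The 5 highest-scoring members lay just under the ceiling. The peak on 3L at 18761410 had a score of 24.7 and lay 705 bp below a mouse peak whose rabbit partner scored 30.6. The peak on 3R at 26887253 (score 24.3) lay 986 bp below a mouse peak whose partner scored 55.4. A peak on 3R at 19490353 (score 23.8) exceeded the partner of its mouse peak, which had a score of 11.6, 1520 bp away. So did one on 2R at 4214458 (score 23.3, partner 18.8, at 1379 bp), while one on 3R at 11277558 (score 23.4, at 3000 bp) had a stronger partner of 37.1. Only 20 members had scores of 20 or more. Just above the ceiling, a peak on 3L at 17958078 scored 25.9 at 491 bp from its mouse peak.

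Flanking peaks lay in nearly equal numbers on the lower and the higher coordinate side of the mouse peaks. The lower side held 1313 of them, or 50.6% (exact 95% binomial interval 48.7 to 52.5%), and the higher side 1282. The median distance was 1573 bp on the lower and 1660 bp on the higher side, and the median score was 5.53 and 5.64. Among the 5 major arms the lower share ran between 45.6% on 2L (40.7 to 50.7%) and 54.1% on X (48.6 to 59.4%), and each interval held 50%. Among 8 distance bins the lower share was highest at 1000 to 1500 bp, with 187 of 314 peaks or 59.6% (53.9 to 65.0%). It was lowest at 250 to 500 bp, with 45.0% (40.0 to 50.0%), and the other bins ran between 48.6% and 51.6%. The lower share at 1000 to 1500 bp was the most uneven of 8 values looked at, and neighbouring peaks are not independent. Side was not used by the rule.

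At the level of the mouse peak, the numbers on the sides had little relation to each other. Members stood on both sides of 356 mouse peaks, on the lower side alone of 381 and on the higher side alone of 390. A lower member was found at 737 mouse peaks and a higher one at 746. The product of these 2 shares gives 336 mouse peaks with both, close to the 356 counted. Across the 1638 mouse peaks the numbers on the 2 sides correlated with a Spearman rho of 0.063. Mouse peaks near each other share the stretch between them, which limits the count on that side. At the 781 mouse peaks with no other mouse peak within 10 kb, members stood on both sides of 238, against 220 from the product of the shares, and the rho was 0.12.

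Most mouse peaks had at least 1 flanking peak, and a minority had many. Of the 1638 mouse peaks, 1127 had a member, or 68.8%. The shifted mouse peaks had one in 581 cases on average, or 35.4% (lowest 541, highest 651). A mouse peak had 1.58 ± 1.69 members (SD over 1638 mouse peaks), against a mean of 0.71 per shifted peak, matched rabbit peaks included. There were 458 mouse peaks with 1 member, 283 with 2 and 183 with 3. The numbers exceeded the mean of the shifts 1.58-fold at 1 member, 1.96-fold at 2, 2.52-fold at 3, 2.76-fold at 4, 2.31-fold at 5 and 3.17-fold at 6 or more. The 203 mouse peaks with 4 or more members (12.4%) held 1022 members, or 39.4% of the total. Isolated mouse peaks had 1.90 members on average and the 857 others 1.30. A mouse peak with a near neighbour has less chromosome assigned to it by the rule. A total of 273 members (10.5%) lay between mouse peaks, with one within 5000 bp on each side.

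**Figure D3:**
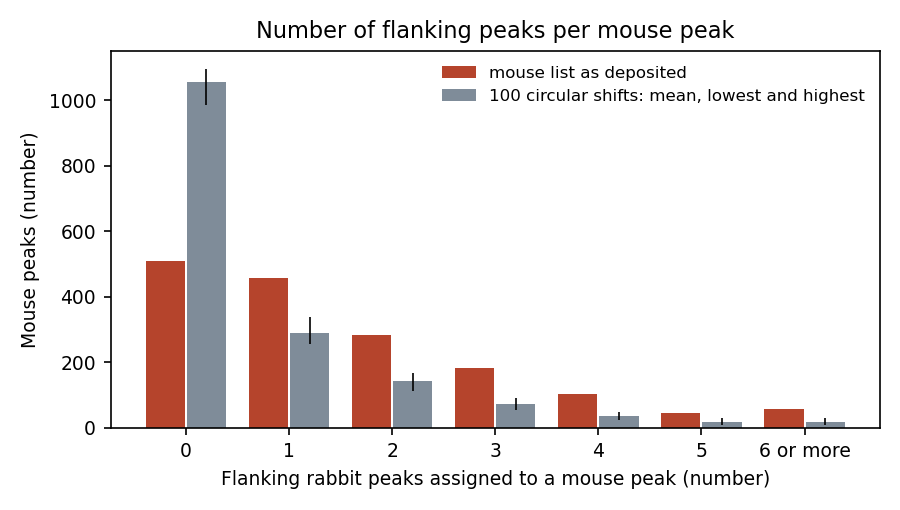
Number of mouse peaks (vertical axis) by the number of flanking rabbit peaks assigned to each (horizontal axis), as deposited and, beside it, as the mean of 100 circular shifts with bars from the lowest to the highest. As deposited, 511 mouse peaks had none, against 1057 in the shifts, and 57 had 6 or more, against 18.0.

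The mouse peaks with the most members were not the strongest ones. The 2 with 11 members each were on 2R. The mouse peak at 8478804 (mouse score 6.90, rabbit partner 12.5) had 6 members on the lower and 5 on the higher side, 509 to 4268 bp away. Their scores ran from 2.47 to 9.02 apart from a peak at 8481056, 2252 bp above, which scored 22.1 and so exceeded the partner. The mouse peak at 6315655 (mouse score 6.15, rabbit partner 14.8) had 4 lower members, from 3818 bp on, and 7 higher ones from 343 bp on, with scores of 2.73 to 14.8. Both thus carried a stretch of many weak peaks with a stronger one some kb away.

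The remaining 3 of the 5 fullest had uneven sides. The mouse peak on 2R at 5438688 had 2 lower and 8 higher members with scores of 2.04 to 6.93, and its partner scored 18.4. The mouse peak on X at 12649230 had 7 lower and 3 higher members, with scores of 2.93 to 10.4 and a partner of 12.7. The mouse peak on 3R at 27547624 had 1 lower and 8 higher members with scores of 2.78 to 8.66, beside a partner of 15.9. The first 3 of those 8, at 278, 443 and 599 bp, had the rank of the partner. The mouse scores of these 3 peaks were 5.96, 4.90 and 6.52.

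**Figure D4:**
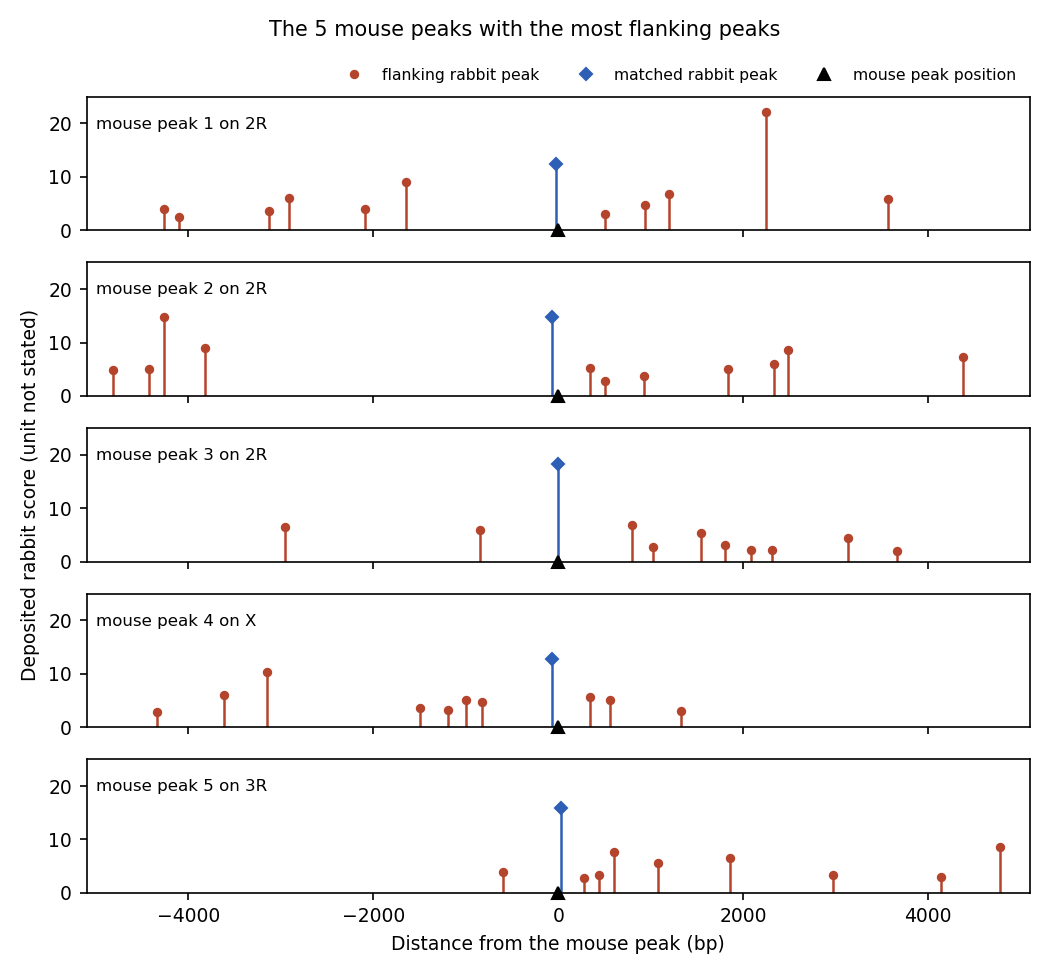
Deposited rabbit score (vertical axis, unit not stated) of the flanking peaks (circles) and of the matched rabbit peak (diamond) against distance from the mouse peak (triangle, bp), in a panel for each of the 5 mouse peaks with the most members. In the first panel a member with a score of 22.1 stands 2252 bp above the mouse peak, and in the others the matched rabbit peak is the highest.

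Of the 5 highest-scoring mouse peaks, 3 had no flanking peak under the rule. These were on 3R at 25352459, X at 17207611 and 2R at 18821367, with mouse scores of 25.9, 21.9 and 21.4. The highest of all, on 2L at 4030352 (mouse score 31.5), had 1 member 1492 bp below it, with a score of 8.59. The peak on 2L at 18312155 (mouse score 22.2) had 3, at 432 bp below (score 3.68) and at 1802 and 2096 bp above (10.5 and 8.43). Among all 1638 mouse peaks, 511 (31.2%) had no member. In 4 equal parts by mouse score, weakest first, 69.3%, 70.4%, 67.7% and 67.8% had a member. These 5 peaks alone therefore do not show that strong sites lack flanking peaks.

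Over the whole list, the number of flanking peaks hardly moved with the score of the site. In 4 equal parts of the mouse list by score, weakest first, a mouse peak had 1.65, 1.61, 1.61 and 1.47 members on average, each with an SD between 1.51 and 1.80. In 4 parts by the score of the rabbit partner the means were 1.66, 1.67, 1.62 and 1.43. Across 1638 mouse peaks the Spearman rho of member number with mouse score was -0.025, and the Pearson r with its logarithm was -0.036. With the score of the rabbit partner the values were -0.034 and -0.048, over 1622 mouse peaks. All points come from the same 2 libraries. Within 500 bp there were 0.30 members per mouse peak in the weakest part by mouse score and 0.21 in the strongest. The median score of the members was 5.25 around the weakest mouse peaks and 5.77 around the strongest.

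The deposited names hold a number and a rank, and some neighbouring peaks have the same rank. The rank was not used by the rule. Of the 2590 members with a rabbit partner at their mouse peak, 384 had the rank of that partner, or 14.8% (exact 95% binomial interval 13.5 to 16.3%). In all 384 cases the peaks were numbered consecutively at gaps of at most 1000 bp, as points of 1 called region would be; whether the rank marks such regions is not stated in the sources used here. Sharing fell steeply with distance. It was 70.8% at 250 to 500 bp (66.0 to 75.2%), 25.6% at 500 to 750 bp (20.6 to 31.1%) and 8.91% at 750 to 1000 bp (5.67 to 13.2%). Only 8 members beyond 1000 bp had the rank of the partner, the farthest at 1801 bp, and beyond 2000 bp there was none among 1099. The innermost flanking peaks were thus mostly joined by rank to the peak of the shared site, and the outer ones were not.

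**Figure D5:**
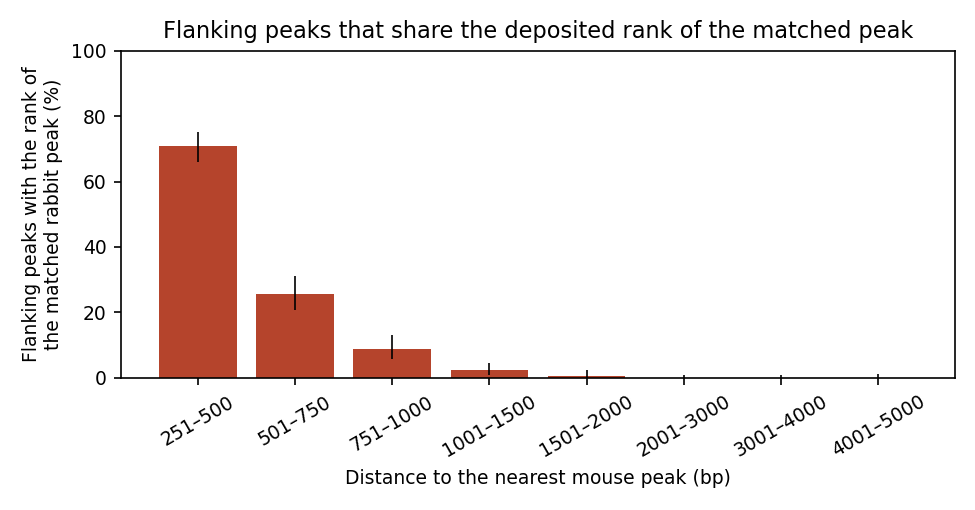
Share of flanking peaks (%) that have the deposited rank of the rabbit peak matched to their mouse peak, in 8 bins of distance to the mouse peak (bp), with exact 95% binomial intervals. The share is 70.8% in the innermost bin and 0 in the 3 bins beyond 2000 bp.

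Members with the rank of the partner were about as weak as the others at the same distance. Within 500 bp their median score was 6.02, against 5.77 for the other members. Neighbours with 1 rank also occurred where neither peak was matched to a mouse peak, a class that includes pairs of flanking peaks. Of neighbouring rabbit peaks 250 to 500 bp apart, 311 of 456 pairs (68.2%, 63.7 to 72.5%) had 1 rank where at least 1 of the pair was matched to a mouse peak. Where neither was, 585 of 1165 pairs had 1 rank (50.2%, 47.3 to 53.1%). The intervals take pairs as independent, though neighbouring pairs can share a peak, and the 2 kinds of pair were not matched by score. Counting peaks of 1 rank once for each mouse peak left 2241 flanking peaks and a ratio to the shifts of 2.20.

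Long runs of members with 1 rank were rare. Of 2235 runs, 1947 held 1 member, 231 held 2 and 45 held 3, while 12 held 4 or more. The longest lay on 2L from 12003149 to 12004455, with 6 members scoring 2.40 to 6.38 below a mouse peak at 12004950, and had the rank of its rabbit partner (score 22.0). The next lay on 3R from 5530111 to 5531249, with 5 members scoring 2.09 to 15.7, and held no matched peak. Its mouse peak at 5527526 was weak (score 3.14). A run of 4 on 3R from 9615542 to 9616359 scored 6.01 to 17.6 and also held no matched peak. The nearest peak of the run of 5 lay 2585 bp from the mouse peak and that of the run of 4 lay 4116 bp from it.

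Peaks of the rabbit list without a mouse partner were surrounded by weak peaks too, and by fewer of them on average. These unmatched peaks include the 2595 flanking peaks and the 37 of score 25 or more at the same distances. Part of them thus lay near mouse peaks and could have other flanking peaks as neighbours. Neighbours were counted here as rabbit peaks below 25 at 250 to 5000 bp, within 10 equal parts of the rabbit list by score. In the top part (scores from 18.5), a matched rabbit peak had 2.49 ± 2.09 neighbours (SD over 684 peaks), and an unmatched one 1.39 ± 1.58 (532 peaks). In the second part the means were 2.77 and 1.97, and in the third 2.96 and 2.27. Matched peaks had the higher mean in 9 of the 10 parts, by 0.70 neighbours on average over the parts. That average gives each part equal weight, though the sixth to ninth parts held only 34, 29, 18 and 17 matched peaks. In the lowest part the means were 2.10 for the 10 matched peaks and 2.32 for the 1206 unmatched peaks. The SDs exceeded these differences, so single peaks of both kinds overlapped widely. Without the neighbours that were themselves matched to a mouse peak, the average difference was 0.43, and the means of the top part were 2.05 and 1.23. Among unmatched rabbit peaks the mean number of neighbours was lowest in the top part and ran between 1.97 and 2.45 in the others.

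Flanking peaks were found along each major arm, and the mean number per mouse peak was highest on X, with an interval that overlapped those of 2R and 3L. On X, 344 members stood at 183 mouse peaks, or 1.88 per mouse peak (exact 95% Poisson interval 1.69 to 2.09), against 0.65 in the shifts. On 2L there were 1.42 (1.28 to 1.56), on 2R 1.65 (1.52 to 1.78), on 3L 1.61 (1.48 to 1.75) and on 3R 1.52 (1.41 to 1.64), with 0.61 to 0.78 in the shifts. Here and above, the Poisson intervals take peaks as independent, which neighbouring peaks are not, so they may be too narrow. The excess over the shifts was 2.87-fold on X and between 2.09-fold and 2.34-fold on the other arms. The chromosome within the flanking distances came to 7.70 kb per mouse peak on X and to between 6.86 and 7.82 kb on the other arms. Per kb of chromosome within the flanking distances, X had 0.244 members (0.219 to 0.271), next to 0.24 on 2R and 0.199 on 2L (0.18 to 0.219). At isolated mouse peaks X had 2.13 members (1.85 to 2.44) and 2R 2.11 (1.88 to 2.35), intervals that overlap. Weak rabbit peaks as such were not dense on X, with 85.8 per megabase against 113 on 2R. The other sequences held 9 members, 6 of them on chromosome 4.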

How the data were processed

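ChIP-seq peak lists of a rabbit and a mouse anti-Grh library were used, with 1 library each. Reads were aligned with Bowtie to dm3, per the submitters' processing notes; the peak caller and its settings were not given in the sources used here. For each peak, the score is the authors' deposited value, of unstated unit, and starts at 2.0 in both lists. Flanking peaks and lists were chosen with earlier results of these data known. Each rabbit peak was assigned to its nearest mouse peak by first base. Circular shifts moved the mouse list by equal fractions of each chromosome's length, taken as the highest peak end; they describe a background and give no p. Peaks named were the 5 mouse peaks with the most members, the 5 with the highest scores, the 5 highest-scoring and 5 nearest members, the 3 longest runs and those next to each threshold. The counting was tested on simulated data. Shares have exact (Clopper-Pearson) 95% intervals. The tools were SciPy 1.17.1, pandas 2.3.3, matplotlib 3.10.9, NumPy 2.4.6 and Python 3.11.15.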

Additional observations from a re-analysis of the deposited data

How the results depend on the processing

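Of 44 alternative values for the results, 32 stayed within 1.5 times the reported value or, for shares, the score difference and the correlation, within its 95% interval, and none changed direction. The Spearman rho of member number with mouse score was -0.012 at isolated mouse peaks, within the interval of the reported value (-0.073 to 0.024 by the Fisher transformation, which takes peaks as independent). The ratio of observed to shifted peaks ran between 1.71 (outer distance 10000 bp) and 3.20 (outer distance 2000 bp), and the lower share between 50.2% and 51.6%. The share of mouse peaks with a member moved to 61.1% with an inner distance of 500 bp, to 53.1% and 77.4% with outer distances of 2000 and 10000 bp, to 46.6% with the upper 50% of the rabbit list by score and to 75.7% for isolated mouse peaks. The share with the rank of the partner moved to 4.70%, 25.8%, 10.4%, 16.8% and 11.9% in the same order. These shares follow from the distances and the peaks allowed. The difference in neighbours between matched and unmatched rabbit peaks moved to 0.40 within 2000 bp and, in a setting chosen after seeing the data, to 0.43 without matched neighbours. No paired analysis was possible because there is 1 library for each antibody. Read depth is unknown, and it limits how many weak peaks a list can hold.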

Other observations

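The 37 rabbit peaks with a score of 25 or more at 250 to 5000 bp from a mouse peak had a median score of 34.0 (quartiles 28.9 and 40.7). Only 5 of the 37 scored lower than the rabbit peak at the mouse peak, or 13.5% (exact 95% binomial interval 4.54 to 28.8%), so most were the stronger peak of the place. The score chose them, so this is a description, and those named here were picked after their values were seen. The highest, on 3R at 13442982, scored 233 and lay 3530 bp above a mouse peak of score 3.60 whose partner scored 14.4. A second one belonged to the same mouse peak, at 13442490 with a score of 61.3. On 3L at 4072926 a peak of score 90.4 lay 1281 bp above a mouse peak of score 2.98, whose partner scored 5.51.

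The mouse list had close neighbours of its own. Of the 1638 mouse peaks, 607 (37.1%) had their nearest mouse peak at 250 to 5000 bp and 79 (4.82%) within 250 bp.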
